A study of Arabidopsis thaliana with 6 samples.

Results

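The enzymes described here build and break down starch in the plastid, and their transcripts were measured in developing Arabidopsis thaliana seeds. The set was listed by locus and not by a threshold on measured values. It was listed with earlier results of these data known, as were the other gene lists below. It holds 10 loci: both listed subunits of ADP-glucose pyrophosphorylase, plastid phosphoglucomutase, 3 starch synthases, 2 branching enzymes, the glucan water dikinase SEX1 and the plastid beta-amylase CT-BMY. Of the 10, 9 were matched to 1 row each of the deposited table, which covers 33471 loci. All 9 had a mean normalised count of at least 10, as did 15589 loci altogether, and these were tested. The starch synthase gene SS3 (AT1G11720) is not analysed here.

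Seeds came from the line ar21 (2 libraries), the line i4g1 (2 libraries) and wild type, WT (2 libraries), all in the strain Columbia-0 and grown under long days. They were taken from siliques 13 days after flowering and pooled, so a library holds embryo, endosperm and seed coat together. The labels give no allele for either line. From knowledge of the study, and not from the labels, both names are read as mutants of eIFiso4G1 (AT5G57870), a scaffold protein of translation initiation. Its normalised counts were 116 and 123 in ar21 and 24.5 and 45.6 in i4g1, against 368 and 454 in WT.

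Starch is made from glucose 6-phosphate. Phosphoglucomutase turns it into glucose 1-phosphate, ADP-glucose pyrophosphorylase activates it, starch synthases add the glucose to growing chains and branching enzymes add the branches. Breakdown begins when a dikinase phosphorylates the granule surface, after which beta-amylases release maltose. In Arabidopsis seeds starch is a passing store: it builds up in the growing embryo and seed coat and is largely gone from the mature seed, in which oil and protein are the main reserves.

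Library size ranged from 3418773 to 8435759 reads, and the nuclear 18S rRNA locus AT3G41768 took a share that differed between lines. That share was 30.0% and 19.8% in ar21, 11.5% and 3.90% in i4g1, and 40.8% and 60.7% in WT. Organelle transcripts took 2.61% and 1.47% of the other reads in ar21, 0.993% and 0.300% in i4g1, and 6.97% and 8.82% in WT. The WT libraries therefore held the fewest reads of other genes, 3070006 and 1344947. Both shares stood in the same order of lines as eIFiso4G1 itself. Rescaling to equal sums of nuclear reads, which leaves both shares out, is among the alternatives given below. Any other part of these shares in the results was not tested. Of 8 marker genes of the embryo and of maturation with a row, the oil body gene OLEO1 stood at 74521 to 131118 and the regulator FUS3 at 385 to 532 over the 6 libraries. OLEO2 stood at 21414 to 40577, WRI1 at 482 to 697 and LEC1 at 11.2 to 30.7. The storage protein genes SESA1 and CRU3 stood at 0 to 3.66 and CRA1 at 10.4 to 47.6. Whether rows under other names hold reads of these storage protein genes was not tested.

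Levels below are normalised counts, that is reads divided by 1 size factor per library, given for replicate 1 and then replicate 2. Differences are log2 fold changes of the normalised count plus 1, with the standard error (SE) or the 95% interval from limma. A gene is said to have risen or fallen where its p, Benjamini-Hochberg adjusted over 15589 loci, was under 0.05. The alternatives edgeR and DESeq2 held 5 libraries, without replicate 1 of ar21, so their ar21 results rest on 1 ar21 library. In whole seeds, fewer cells of a type and less RNA per cell cannot be told apart.

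Of 9 starch enzyme transcripts, 3 passed the test in i4g1, where 22.4% of all loci did, and 0 in ar21, where 14.8% did. In i4g1 against WT, CT-BMY rose, the branching enzyme gene SBE2.1 and the granule-bound synthase gene GBSS1 fell, and 6 of 9 did not pass. Over all loci 22.4% passed in that comparison, 12.5% higher and 9.84% lower, so 3 of 9 is near the background share. In ar21 against WT 0 of 9 passed in limma, beside 14.8% of all loci (8.74% higher and 6.04% lower). Without adjustment 1 gene, SBE2.1, was under 0.05 in ar21. With edgeR and DESeq2, which held 1 ar21 library, the 9 genes did not pass in ar21 either. The median log2 fold change of the 9 genes was -0.21 in ar21 and -0.10 in i4g1, against 0.013 and 0.014 over all loci. Both comparisons share the WT libraries. In ar21 both libraries lay below both WT libraries for 6 genes and above for 0 of 9. Over all loci the libraries did not overlap in 58.9% (30.4% higher and 28.5% lower). In i4g1 they lay below WT for 4 genes and above for 3, beside 60.2% of all loci (31.0% higher and 29.2% lower). The ar21 libraries lay below those of i4g1 for 4 genes and above for 1, beside 42.4% of all loci (21.5% higher and 20.8% lower).

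**Figure D1:**
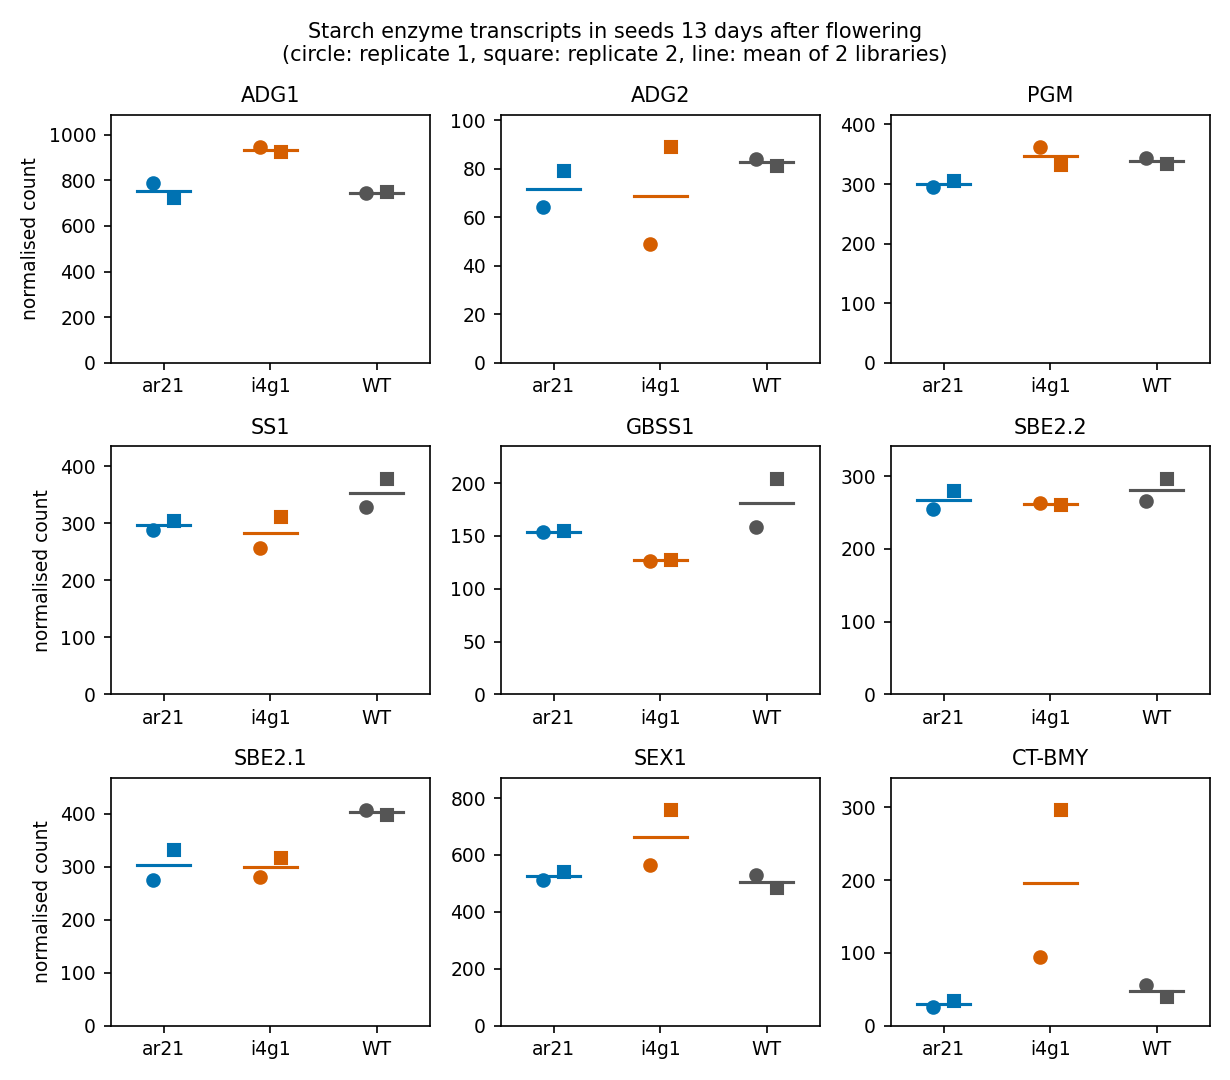
Normalised counts (vertical axes, linear, from 0) of 9 starch enzyme genes in ar21, i4g1 and WT, with 1 point per library and a line at the mean of 2 libraries. CT-BMY stood at 94.4 and 296 in i4g1, above the 4 other libraries, and SBE2.1 was below both WT libraries in all 4 mutant libraries.

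The sequences just before 4 of these genes are shown because 3 of them were called in i4g1 and the fourth, SS1, carries the same motif as SBE2.1. Each is the 250 bases before the annotated start in TAIR10.1, on the gene's own strand. Capitals mark the G-box CACGTG, which is its own reverse complement and holds the core ACGTG of the abscisic acid response element on both strands.
SBE2.1, chr2:15263961-15264210, + strand: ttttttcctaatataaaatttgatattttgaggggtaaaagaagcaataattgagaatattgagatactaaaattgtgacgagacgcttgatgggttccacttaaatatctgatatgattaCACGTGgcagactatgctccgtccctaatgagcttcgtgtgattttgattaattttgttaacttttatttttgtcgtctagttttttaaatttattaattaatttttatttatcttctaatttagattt
SS1, chr5:8266316-8266565, + strand: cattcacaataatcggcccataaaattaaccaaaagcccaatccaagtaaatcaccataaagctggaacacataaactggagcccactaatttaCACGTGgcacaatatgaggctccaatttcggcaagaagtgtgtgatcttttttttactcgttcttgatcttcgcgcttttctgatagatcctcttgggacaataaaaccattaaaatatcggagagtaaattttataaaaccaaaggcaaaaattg
GBSS1, chr1:11923867-11924116, - strand: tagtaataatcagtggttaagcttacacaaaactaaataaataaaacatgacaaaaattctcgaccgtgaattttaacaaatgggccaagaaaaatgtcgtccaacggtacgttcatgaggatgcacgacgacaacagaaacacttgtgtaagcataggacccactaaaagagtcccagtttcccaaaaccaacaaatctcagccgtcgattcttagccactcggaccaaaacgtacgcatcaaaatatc
CT-BMY, chr4:9607403-9607652, - strand: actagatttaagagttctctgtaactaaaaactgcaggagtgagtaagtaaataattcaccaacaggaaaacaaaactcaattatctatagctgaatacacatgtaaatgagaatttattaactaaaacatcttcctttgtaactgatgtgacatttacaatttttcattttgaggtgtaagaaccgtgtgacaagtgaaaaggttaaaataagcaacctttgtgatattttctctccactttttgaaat

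The G-box begins 129 bases before the start of SBE2.1 and 156 bases before that of SS1. It also occurs in the window of SS3, so 3 of 10 windows hold it, against 6.49% of 27437 windows of protein-coding genes. Searched on both strands, the core ACGTG was in the same 3 windows (22.9% of all windows), the evening element AAAATATCT in that of PGM (2.36%) and the CCA1-binding site AAAAATCT in that of SBE2.2 (6.69%). The cold-response core CCGAC was in 0 of 10 windows (12.0% of all). A match is a description of the letters in these windows only.

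PGM, ADG1 and ADG2 did not pass in either line. PGM (AT5G51820, TAIR10.1 chromosome 5, 21063298 to 21068327, - strand), plastid phosphoglucomutase, stood at 295 and 305 in ar21, 362 and 332 in i4g1, and 344 and 333 in WT. The ar21 libraries were the lowest of the 6, and the i4g1 and WT libraries overlapped. The log2 fold change was -0.17 ± 0.12 (SE) in ar21, with a 95% interval of -0.43 to 0.090, and 0.033 ± 0.12 in i4g1 (-0.23 to 0.30). The adjusted p from limma was 0.374 in ar21 and 0.875 in i4g1.

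ADG1 and ADG2 encode the small and the large subunit of ADP-glucose pyrophosphorylase, the enzyme that commits glucose to starch. ADG1 (AT5G48300, chromosome 5, 19570238 to 19572804, + strand) stood at 787 and 721 in ar21, 946 and 923 in i4g1, and 745 and 748 in WT. Both i4g1 libraries were above the other 4, and the ar21 libraries lay on either side of WT. The log2 fold change in i4g1 was 0.32 ± 0.11 (SE), an interval of 0.080 to 0.57, with adjusted p = 0.0568 from limma. In ar21 it was 0.013 ± 0.11 (-0.23 to 0.26, adjusted p = 0.955).

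ADG2 (AT5G19220, also known as APL1, chromosome 5, 6463824 to 6466831, - strand) stood at 64.3 and 79.1 in ar21, 48.9 and 89.0 in i4g1, and 84.1 and 81.2 in WT. The i4g1 libraries held the lowest and the highest value of the 6. The interval of its log2 fold change covered -0.77 to 0.35 in ar21 and -0.88 to 0.24 in i4g1. These are wider than for ADG1, on 29 to 205 reads per library where ADG1 had 267 to 2127. Of its 1732 exon bases, 602 are shared with AT5G19221 on the opposite strand, a locus listed at 0 in all 6 libraries.

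Among the synthases, SS1 (AT5G24300, SSI1 in the table), a soluble enzyme that extends short chains, stood at 288 and 304 in ar21, 256 and 310.3 in i4g1, and 328 and 378 in WT. All 4 mutant libraries were below both WT libraries. The log2 fold change was -0.25 ± 0.14 (SE) in ar21 (adjusted p = 0.254) and -0.32 ± 0.14 in i4g1 (adjusted p = 0.118), both from limma and neither past the threshold. SS1 lies on chromosome 5, 8266566 to 8271205, + strand.

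GBSS1 (AT1G32900, WAXY in the table, chromosome 1, 11920390 to 11923866, - strand), the granule-bound synthase that makes amylose, stood at 154 and 154 in ar21, 127 and 127 in i4g1, and 158 and 204 in WT. Both i4g1 libraries were the lowest of the 6, and the WT libraries differed from each other more than ar21 did from WT 1. GBSS1 fell in i4g1 by 0.50 ± 0.16 on the log2 scale (SE, interval -0.84 to -0.16, adjusted p = 0.0387 from limma). Leaving out WT 2 ended this call (-0.32, adjusted p = 0.198), as did leaving out either i4g1 or either ar21 library (up to 0.129), edgeR (0.0664) and DESeq2 (0.324). In ar21 the log2 fold change was -0.22 ± 0.16 (adjusted p = 0.378).

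For SS3, an assembled transcript that the table names after its neighbour AT1G11710 stood at 284 and 342 in ar21, 240.3 and 256 in i4g1, and 414 and 372 in WT. In TAIR10.1, AT1G11710 ends just before SS3 begins on the same strand (chromosome 1, 3951366 to 3957044). Whether that row holds reads of SS3 was not tested, and it is counted nowhere here.

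The pair of branching enzymes differed in their values. SBE2.1 (AT2G36390, chromosome 2, 15264211 to 15270092, + strand) stood at 275 and 332 in ar21, 281 and 316 in i4g1, and 407 and 398 in WT. All 4 mutant libraries were below both WT libraries. SBE2.1 fell in i4g1 by 0.43 ± 0.13 on the log2 scale (SE, interval -0.72 to -0.14, adjusted p = 0.0373 from limma). In ar21 the log2 fold change was -0.41 ± 0.13 (-0.70 to -0.12), with adjusted p = 0.0599. The i4g1 call was lost when any 1 of the 6 libraries was left out (adjusted p up to 0.191) and with DESeq2 (0.212). The log2 fold change stayed between -0.51 and -0.35 over the libraries left out.

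SBE2.2 (AT5G03650, chromosome 5, 931762 to 937702, + strand) stood at 255 and 280.3 in ar21, 263 and 261 in i4g1, and 266 and 297 in WT. The ar21 libraries overlapped WT, and both i4g1 libraries lay just below it. The log2 fold change was -0.070 (-0.35 to 0.21, adjusted p = 0.762 from limma) in ar21 and -0.10 (-0.38 to 0.18, adjusted p = 0.616) in i4g1. Per kilobase of exon, the level of SBE2.1 was 1.08 and 1.19 times that of SBE2.2 in ar21 and 1.07 and 1.22 times in i4g1, against 1.54 and 1.34 times in WT. This ratio is taken within a library, so it does not depend on the scaling between libraries, and WT did not overlap either line. Of the 50-base words in the exons of each of the 10 genes, 0 occur elsewhere in the genome, so reads of that length would separate the pair.

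On the side of breakdown, SEX1 (AT1G10760, chromosome 1, 3580830 to 3590928, - strand), the dikinase that phosphorylates starch, stood at 510.4 and 539 in ar21, 565 and 758 in i4g1, and 528 and 484 in WT. Both i4g1 libraries were above the other 4, with i4g1 2 highest. The log2 fold change was 0.052 ± 0.14 (SE, -0.26 to 0.36, adjusted p = 0.848 from limma) in ar21. In i4g1 it was 0.37 ± 0.14 (0.061 to 0.68, adjusted p = 0.0823). Without i4g1 1 it was 0.58 and passed (adjusted p = 0.0168), and without i4g1 2 it was 0.16.

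CT-BMY (AT4G17090, also known as BAM3, chromosome 4, 9604962 to 9607402, - strand) encodes the main active beta-amylase of leaf chloroplasts. It stood at 26.1 and 34.4 in ar21, 94.4 and 296 in i4g1, and 56.1 and 39.2 in WT. Both i4g1 libraries were above the other 4, and both ar21 libraries were below both WT libraries. These values rest on 26 and 47 reads in ar21, 108 and 683 in i4g1, and 46 and 14 in WT. The exact 95% Poisson intervals, which cover counting error only, were 17.0 to 38.1 and 34.5 to 62.5 in ar21, 88.6 to 130.4 and 633 to 736 in i4g1, and 33.7 to 61.4 and 7.65 to 23.5 in WT.

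CT-BMY rose in i4g1 against WT by a log2 fold change of 1.81 ± 0.41 (SE, interval 0.93 to 2.70, adjusted p = 0.00798 from limma). In ar21 the log2 fold change was -0.63 ± 0.41 (-1.51 to 0.26, adjusted p = 0.333). Set directly against i4g1, ar21 was lower, with a log2 fold change of -2.44 ± 0.41 (-3.33 to -1.56, adjusted p = 0.0331). It was the 1 gene of the 9 that passed between the lines, beside 0.282% of all loci (0.115% higher and 0.167% lower). The rise in i4g1 did not pass without i4g1 2 (0.99, adjusted p = 0.0653), without WT 2 (1.56, 0.0538) or with DESeq2 (2.01, 0.125). The difference between the lines did not pass without i4g1 2 (-1.62) or without either ar21 library. It did not pass with edgeR or DESeq2 either, which held 1 ar21 library, ar21 2.

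**Figure D2:**
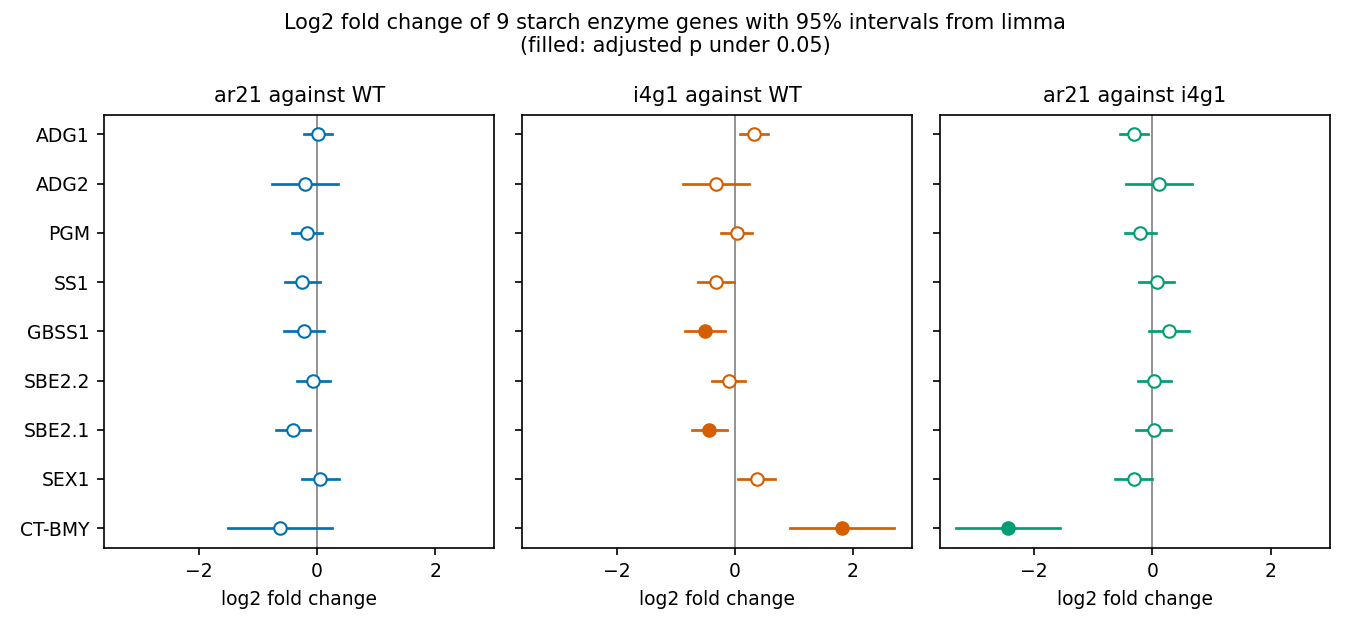
Log2 fold change (horizontal axes) of 9 starch enzyme genes in 3 comparisons, with 95% intervals from limma and filled points at adjusted p under 0.05. The interval of CT-BMY lies above 0 in i4g1 against WT (0.93 to 2.70) and below 0 in ar21 against i4g1 (-3.33 to -1.56).

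Genes known from leaves and from defence were high in the same libraries as CT-BMY. Of 5 genes listed as markers of shoot tissue outside the seed, 3 were high enough to be tested. Whether their RNA came from such tissue or from the seed itself was not tested. All 3 rose in i4g1, beside 12.5% of all loci. The log2 fold change was 2.97 for CA1, 3.06 for PR1 and 1.154 for RBCS1A (adjusted p = 0.000882, 0.00120 and 0.000530 in limma). CA1 (AT3G01500), the carbonic anhydrase of leaf chloroplasts, stood at 24.1 and 16.8 in ar21, 115 and 415 in i4g1, and 32.9 and 22.4 in WT. PR1 (AT2G14610), a marker of salicylic acid responses, stood at 38.2 and 22.0 in ar21, 308 and 1218 in i4g1, and 98.7 and 53.2 in WT. RBCS1A (AT1G67090), a Rubisco small subunit gene, stood at 9478 and 8678 in ar21, 11862 and 11474 in i4g1, and 4800.3 and 5727 in WT. RBCS1A also rose in ar21, by 0.79 on the log2 scale (adjusted p = 0.00740 from limma, lost without WT 1, ar21 1 or ar21 2), where CA1 (-0.41, 0.590) and PR1 (-1.29, 0.100) did not pass. As with CT-BMY, CA1 and PR1 were highest in i4g1 2, then in i4g1 1, while RBCS1A was not. The silique wall marker IND stood at 0 in all libraries. FUL, a second one and too low to be tested, stood at 1.00 and 0 in ar21, 2.62 and 4.34 in i4g1, and 0 and 0 in WT. The summed level of the 5 listed genes was 8716 to 9541 in ar21, 12288 to 13112 in i4g1 and 4932 to 5802 in WT, most of it RBCS1A. The part of such tissue in the CT-BMY result was not tested.

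**Figure D3:**
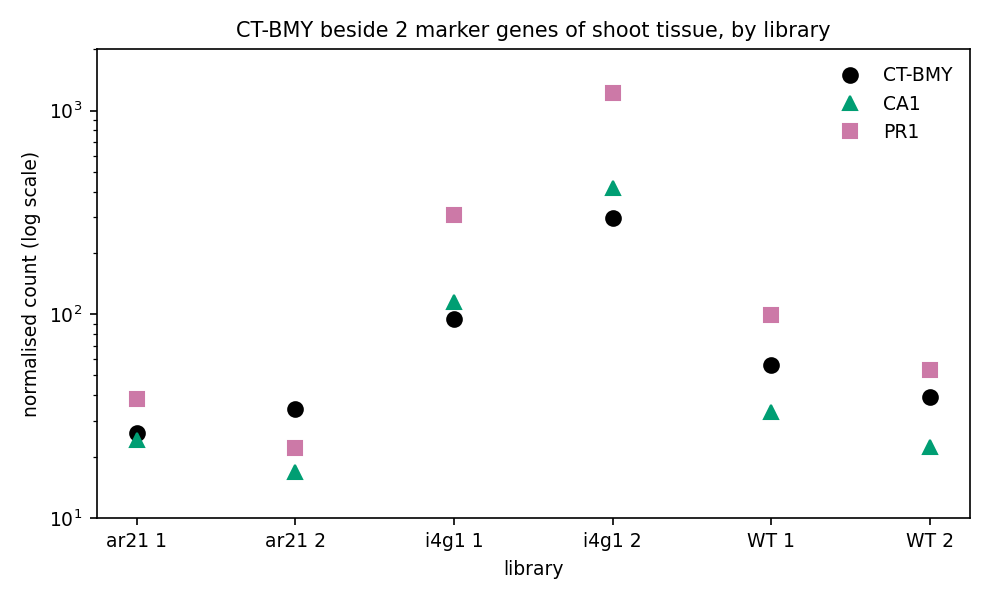
Normalised counts on a log axis (vertical) in each of 6 libraries (horizontal) for CT-BMY, CA1 and PR1. All 3 genes were highest in i4g1 2, at 296, 415 and 1218, and next highest in i4g1 1, at 94.4, 115 and 308.

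CT-BMY lies opposite 2 annotated loci. It shares 518 of its 2103 exon bases with AT4G06665, whose own level is not used here and whose part in the CT-BMY values was not tested, and 13 with AT4G17085, which stood at 18.2 to 27.8 over the 6 libraries. The library kit does not usually mark the strand, so reads from the shared bases cannot be told apart. AT4G17085 was lowest in the i4g1 libraries, and its part in the CT-BMY values was not tested either.

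Compared per kilobase of exon, ADG1 was the highest of the 9 genes in each line, at 397 ± 24.5 in ar21, 492 ± 8.44 in i4g1 and 393 ± 1.07 in WT (SD, n = 2). In WT it was followed by SBE2.1 (144 ± 2.399), PGM (135 ± 2.98) and SS1 (132 ± 13.3), where SS1 does not differ from PGM or SBE2.1 beyond its spread. SEX1 (100.4 ± 6.09) and SBE2.2 (100.03 ± 7.82) were next and do not differ beyond it either. GBSS1 (79.2 ± 14.2), ADG2 (47.7 ± 1.18) and CT-BMY (22.7 ± 5.67) closed the order in WT. ADG2 shares 602 of 1732 exon bases, and CT-BMY 518 of 2103, with a locus on the opposite strand. The effect of this overlap on their levels per kilobase was not tested. In ar21 SBE2.1 was the fourth at 108 ± 14.4, within its spread of SS1 (110.8 ± 4.08). In i4g1 CT-BMY averaged 92.9 ± 67.9 per kilobase, the seventh in the order. It lay between ADG2 (28.3) and GBSS1 (55.3) in i4g1 1, at 44.9, and between PGM (132.7) and SEX1 (150.4) in i4g1 2, at 141. The level of ADG2 per kilobase was 0.0896 and 0.120 of that of ADG1 in ar21, 0.0567 and 0.106 in i4g1, and 0.124 and 0.119 in WT.

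Other genes of starch synthesis were more often lower than higher in i4g1. Of 16 listed, 13 were high enough to be tested. In i4g1 6 fell and 0 rose, with a median log2 fold change of -0.51, and in ar21 1 fell and 0 rose (median -0.31). Over all loci the share that fell was 9.84% in i4g1 and 6.04% in ar21, and the median over all loci was 0.013 in ar21 and 0.014 in i4g1. No gene of the list rose at an unadjusted p under 0.05 either (0 in limma, 0 in edgeR, 0 in DESeq2). The number that fell in i4g1 was 1 to 5 with 1 library left out, 2 by edgeR and 0 by DESeq2, where 2 passed unadjusted. ISA2 (AT1G03310), the partner of the debranching enzyme ISA1, stood at 101 and 105 in ar21, 102 and 81.6 in i4g1, and 156 and 162 in WT. All 4 mutant libraries were below both WT libraries. ISA2 fell in i4g1 by 0.79 on the log2 scale (adjusted p = 0.00542 from limma) and kept that call with each library left out. In ar21 it fell by 0.62 (adjusted p = 0.0262), a call lost without any 1 ar21 or WT library.

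The 5 others that fell in i4g1 were SS5, PTST2 and PTST3, which act in granule initiation, LESV, which helps to order the glucans of the granule, and APL2, a large subunit of ADP-glucose pyrophosphorylase. Their log2 fold changes were -0.91 for SS5, -0.86 for LESV, -0.78 for APL2, -0.69 for PTST2 and -0.51 for PTST3, with adjusted p from 0.0191 to 0.0412 in limma. SS5 (AT5G65685) stood at 36.2 and 48.3 in ar21, 36.7 and 32.5 in i4g1, and 59.7 and 72.8 in WT. LESV (AT3G55760) stood at 30.1 and 36.6 in ar21, 27.1 and 36.0 in i4g1, and 53.6 and 61.6 in WT. In both genes all 4 mutant libraries were below both WT libraries. Each of these 5 calls was lost without WT 2, and each was also lost without at least 1 of the i4g1 libraries.

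Among other genes of starch breakdown some rose and some fell. Of 21 listed, 19 were tested. In ar21 2 rose and 3 fell (median log2 fold change -0.053), and in i4g1 3 rose and 2 fell (median 0.084). Over all loci 8.74% rose and 6.04% fell in ar21, and 12.5% rose and 9.84% fell in i4g1, so 5 of 19 is near the background share in i4g1. The number called in either direction in i4g1 was 4 by edgeR and 2 by DESeq2. In ar21 both tools, with 1 ar21 library, called fewer than limma. AMY3 (AT1G69830), the plastid alpha-amylase, stood at 256 and 283 in ar21, 242 and 259 in i4g1, and 457 and 423 in WT. All 4 mutant libraries were well below both WT libraries. AMY3 fell, with a log2 fold change of -0.71 in ar21 (adjusted p = 0.00337 from limma, lost without ar21 1 at 0.0695) and -0.81 in i4g1 (adjusted p = 0.000948). ISA3 (AT4G09020), a debranching enzyme of breakdown, stood at 276 and 251 in ar21, 229 and 268 in i4g1, and 379 and 375 in WT. It fell, with a log2 fold change of -0.52 in ar21 (adjusted p = 0.0212, lost without any 1 ar21 or WT library) and -0.60 in i4g1 (adjusted p = 0.00673, lost without i4g1 1).

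Members that rose or fell also include proteins not known to break down starch in plastids. AMY1 (AT4G25000), an alpha-amylase secreted from the cell, stood at 347 and 289.9 in ar21, 375 and 371 in i4g1, and 204 and 221 in WT. It rose by 0.58 on the log2 scale in ar21 (adjusted p = 0.0131 from limma, lost without WT 1 or ar21 1) and by 0.81 in i4g1 (adjusted p = 0.00128). BAM9 (AT5G18670), a beta-amylase relative without known activity, stood at 182 and 161 in ar21, 163 and 174 in i4g1, and 108 and 98.0 in WT. It rose by 0.73 in ar21 (adjusted p = 0.00739, lost without ar21 1) and 0.70 in i4g1 (adjusted p = 0.00628). In both genes all 4 mutant libraries were above both WT libraries.

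BAM5 (AT4G15210), a beta-amylase found outside plastids, stood at 281 and 294 in ar21, 417 and 501 in i4g1, and 566 and 476 in WT. The ar21 libraries were the lowest of the 6, and those of i4g1 and WT overlapped. BAM5 fell by 0.85 on the log2 scale in ar21 (adjusted p = 0.00193 from limma) and did not pass in i4g1 (-0.18, 0.368). The lines did not pass against each other (-0.67, 0.0851). PHS1 (AT3G29320), the plastid starch phosphorylase, stood at 832 and 775 in ar21, 1008 and 1046 in i4g1, and 785 and 787 in WT. It rose by 0.39 in i4g1 (adjusted p = 0.0274), a call lost without any 1 of the 6 libraries.

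Of 5 transporters that carry carbon or ATP across the plastid envelope, 3 rose and 1 fell in ar21, beside 8.74% and 6.04% of all loci, and 3 rose and 2 fell in i4g1, beside 12.5% and 9.84%. In i4g1 1 rose and 2 fell by edgeR, and 1 rose and 1 fell by DESeq2. In ar21 both tools, with 1 ar21 library, called fewer than limma. GPT2 (AT1G61800) and GPT1 (AT5G54800) bring in glucose 6-phosphate. GPT2 stood at 173 and 102 in ar21, 167 and 118 in i4g1, and 591 and 804 in WT. GPT1 stood at 328 and 323 in ar21, 292 and 274 in i4g1, and 394 and 456 in WT. All 4 mutant libraries were below both WT libraries in each gene. GPT2 fell, with a log2 fold change of -2.36 in ar21 and -2.29 in i4g1 (adjusted p = 0.000108 and 9.61e-05 from limma), and kept both calls with each library left out. GPT1 fell by 0.58 in i4g1 (adjusted p = 0.00652) and did not pass in ar21 (-0.38, 0.0621).

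The ATP importer genes NTT1 (AT1G80300) and NTT2 (AT1G15500) rose. NTT1 rose by 0.62 in ar21 and 0.60 in i4g1 (adjusted p = 0.00574 and 0.00463 from limma), and NTT2 by 0.37 and 0.42 in ar21 and i4g1 (0.0481 and 0.0204). The glucose transporter gene pGlcT (AT5G16150), whose protein exports glucose from the plastid, rose by 0.70 in ar21 and 0.44 in i4g1 (0.00592 and 0.0391). Of these 6 calls, NTT1 in i4g1 was kept with each library left out. NTT1 in ar21 was lost without ar21 1, pGlcT in ar21 without ar21 2, NTT2 in ar21 without any 1 ar21 or WT library, NTT2 in i4g1 without any library but i4g1 2, and pGlcT in i4g1 without any library but WT 2.

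**Figure D4:**
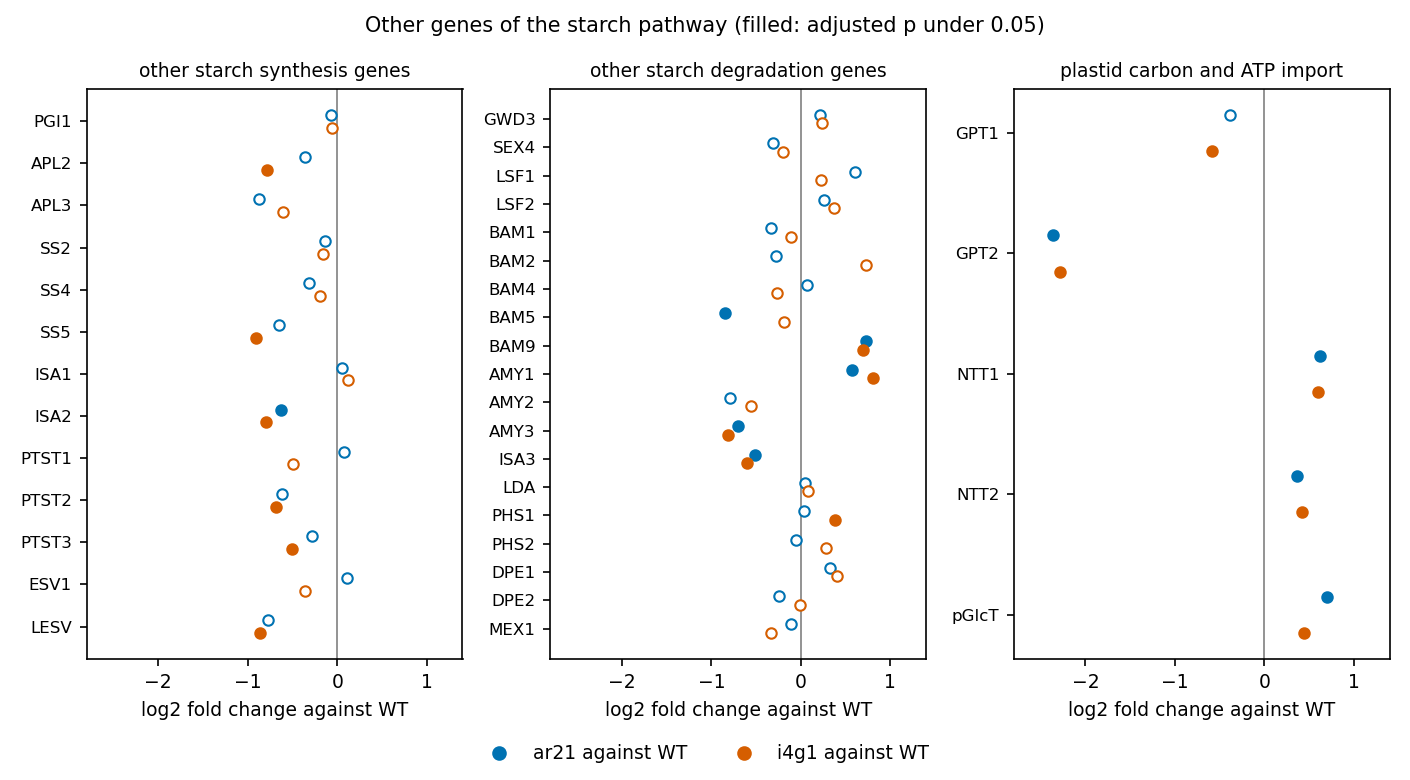
Log2 fold change against WT (horizontal axes) of other genes of starch synthesis, starch breakdown and plastid import, in ar21 and in i4g1, with filled points at adjusted p under 0.05 in limma. In synthesis 6 of 13 genes are filled on the lower side in i4g1 and 1 in ar21, and GPT2 lies farthest from 0, at -2.36 in ar21 and -2.29 in i4g1.

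Some starch genes of leaves follow the circadian clock, so the clock genes of the same libraries are given beside them. Of 9 clock genes 1 rose and 3 fell in ar21, where 14.8% of all loci passed, and 2 rose and 3 fell in i4g1, where 22.4% passed. The morning gene LHY (AT1G01060) stood at 23.1 and 28.5 in ar21, 21.8 and 20.4 in i4g1, and 56.1 and 61.6 in WT. The evening gene TOC1 (AT5G61380) stood at 218 and 235 in ar21, 225 and 252 in i4g1, and 149 and 134 in WT. In both genes all 4 mutant libraries lay on one side of WT. In ar21 LHY, PRR9 and PRR7 fell (log2 fold change -1.16, -1.90 and -0.58), and in i4g1 the same 3 fell (-1.43, -2.11 and -0.63). TOC1 rose by 0.68 in ar21 and 0.75 in i4g1, and LUX rose by 0.90 in i4g1. The ar21 calls were lost without ar21 1, and those of PRR7 and LUX in i4g1 without WT 2 or i4g1 1. In ar21 the clock genes did not pass by edgeR or DESeq2 either, which held 1 ar21 library. In i4g1 5 passed by edgeR, and by DESeq2 2 fell and 0 rose. The hour of harvest is not given in the labels, and its part in the values of GBSS1 or any other starch gene was not tested.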

How the data were processed

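RNA of 6 seed pools was sequenced after preparation with the TruSeq RNA v2 kit, per the labels. The authors deposited a signal for each merged locus: its read count, scaled by a size factor of the library. The submitters' processing notes list STAR 2.4.0j, StringTie 1.0.3, HTSeq 0.6.0, DESeq2 1.12.4 and the build TAIR10. All 6 columns were matched by name to the libraries, and 0 were left unused.

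Rows of the same locus were added together (494 loci had more than 1). The log2 of each normalised count plus 1 was fitted with limma 3.58.1 (R 4.3.3), with a mean for each line, an intensity trend and all 6 libraries together, for loci with a mean of at least 10. Tests were two-sided, and p was adjusted by Benjamini-Hochberg over all loci tested. In every library 100.0% of the values were whole multiples of 1 step (relative tolerance 0.001). Whole reads were thus recovered for 5 libraries and entered edgeR 4.0.16 and DESeq2 1.42.0 as alternatives. The step of ar21 1 is near 1, at 1.00476. By choice its reads were not taken as recovered, though its values too were whole multiples of that step. It was left out of both tools, which leaves them 1 ar21 library, and the reads given for it are its values over that step. The limma fit was run on simulated data for both lines against WT, and edgeR and DESeq2 for i4g1 against WT. The simulation gave all genes the same dispersion, and its outcome is not used here. The comparison of ar21 against i4g1 and the other alternatives were not simulated.

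Coordinates and sequences are RefSeq's, of TAIR10.1. All genes and lists were chosen with earlier results of these data known. By rule, each starch enzyme gene is named, and up to 6 genes per other list that passed in either line, by largest change. Marker genes that did not pass, PGM2 and PGM3 are given in addition and were chosen after their values were seen. The labels speak of replicates and do not say that they were grown apart, so p-values measure the spread between these libraries.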

Additional observations from a re-analysis of the deposited data

Results flagged for a closer look

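The value of CT-BMY differed between the lines. Both i4g1 libraries (94.4 and 296 normalised counts) were above both WT libraries (56.1 and 39.2), and both ar21 libraries (26.1 and 34.4) were below them. The test of the difference, ar21 against i4g1 in limma, gave a log2 difference of -2.44 with adjusted p = 0.0331. In the same libraries the leaf gene CA1 (log2 difference -3.38, adjusted p = 0.0109 in limma) and the defence gene PR1 (-4.35, 0.00691) passed the same test. The CA1 call was lost without ar21 1, ar21 2 or i4g1 2 and the PR1 call without ar21 2. Neither passed with edgeR or with DESeq2, which held 1 ar21 library, ar21 2. The CT-BMY call was lost without i4g1 2 (-1.62), ar21 1 or ar21 2, and with edgeR and DESeq2. The part of either gene in the CT-BMY difference was not tested.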

How the results depend on the processing

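Each log2 fold change of the 9 starch enzyme genes was recomputed under 18 alternatives in 3 comparisons. Of these values 435 kept their direction and side of the threshold, 32 lost a call, 4 gained one and 15 changed sign, none of the last from a call; the causes were not tested. The number of starch enzyme genes called in ar21 against WT was 0, and 1 with a mean of at least 50 or with a replicate block. In i4g1 against WT it was 3, and 4 with a mean of at least 50. It was 2 with edgeR, 1 without a filter or with only the compared groups, and 0 without a trend or with DESeq2. It was below 3 with any library left out. In ar21 against i4g1 it was 1, and 0 without a filter, under equal sums of nuclear reads, without a trend, with edgeR or with DESeq2, and 0 to 1 with a library left out. Loci called in ar21 against WT numbered 2304, against 676 without a trend, 633 by edgeR, 369 by DESeq2 and 523 to 2386 with a library left out (523 without ar21 1 and 833 without ar21 2). In i4g1 against WT they numbered 3485, against 1784 without a trend, 1293 by DESeq2 and 2051 to 3194 with a library left out (2051 without i4g1 1 and 2279 without i4g1 2). In ar21 against i4g1 they numbered 44, against 2 without a filter, 0 without a trend (1169 unadjusted), 2 by edgeR, 7 by DESeq2 and 2 to 159 with a library left out (2 without ar21 1, 3 without ar21 2, 6 without i4g1 2 and 159 without i4g1 1). The replicate block gave 2457 loci in ar21 and 3672 in i4g1 against WT and 82 between the lines. Deviations of libraries with the same number correlated by 0.12, -0.080 and -0.028 (ar21 with i4g1, ar21 with WT, i4g1 with WT). With 2 libraries a line, these values cannot tell whether libraries of the same number were handled together. Under equal sums 44.1% of the calls in i4g1 were higher, against 56.0%, and 54.3% in ar21 against i4g1, against 40.9%. Sign changes against WT in ar21 were those of ADG1 (-0.002983 under equal sums, -0.062 by edgeR, -0.063 by DESeq2, -0.050 to 0.076 with a library left out), SBE2.2 (-0.15 to 0.0094) and SEX1 (-0.0094 to 0.11). In i4g1 they were those of ADG2 (-0.74 to 0.10) and PGM (-0.030 to 0.096, and -0.046 under equal sums). In ar21 against i4g1 they were those of ADG2 (-0.32 to 0.53), SS1 (-0.068 to 0.21), SBE2.2 (-0.037 to 0.098) and SBE2.1 (-0.12 to 0.16). The edgeR and DESeq2 fits held 1 ar21 library. In comparisons with ar21, the change of tool and the loss of a library therefore cannot be told apart in their counts. With 2 libraries a line, and 14 to 683 reads for CT-BMY, small differences were not detectable.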

Other observations

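The cytosolic forms of phosphoglucomutase were also measured. PGM2 (AT1G70730) stood at 366 and 362 in ar21, 395 and 403 in i4g1, and 463 and 448 in WT, with all 4 mutant libraries below WT. PGM3 (AT1G23190) stood at 499 and 501 in ar21, 565 and 618 in i4g1, and 562 and 591 in WT. Neither passed in ar21 (log2 fold change -0.32 for PGM2 and -0.20 for PGM3) or in i4g1 (-0.19 and 0.036).

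Among markers of the tissues in a seed, 4 genes passed. MUM2 (AT5G63800), a galactosidase of seed coat mucilage, stood at 85.4 and 93.0 in ar21, 56.8 and 82.0 in i4g1, and 9.75 and 16.8 in WT. It rose by 2.70 on the log2 scale in ar21 and 2.32 in i4g1 (adjusted p = 0.000152 and 0.000273 in limma). GL2 (AT1G79840), a regulator of the seed coat epidermis, rose by 0.48 in ar21 and 0.77 in i4g1, and MYB118 (AT3G27785), a regulator of the endosperm, by 0.80 and 0.71. LEC1 (AT1G21970), a regulator of embryo maturation, rose by 1.21 in ar21. In all, 2 of 6 seed coat, 1 of 3 endosperm and 1 of 6 embryo markers tested passed in ar21, and 2, 1 and 0 in i4g1, each upward, beside 8.74% of all loci higher in ar21 and 12.5% in i4g1. The MUM2 calls and that of GL2 in i4g1 were kept with each library left out. The calls in ar21 of GL2 and LEC1 were lost without WT 2, ar21 1 or ar21 2. The MYB118 call was lost without ar21 1 or ar21 2 in ar21 and without WT 1 or i4g1 1 in i4g1. In ar21 the calls of GL2, MYB118 and LEC1 did not pass with edgeR, which held 1 ar21 library, and that of MUM2 did.

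The loci whose pattern over the 6 libraries was closest to that of ADG1, the starch enzyme gene with the highest level per kilobase in WT, were PAG1 (AT2G27020), AT5G53540 and GGT1 (AT4G39640). Their root mean square difference from ADG1 was 0.0260, 0.0350 and 0.0362 on the log2 scale, each locus centred on its own mean. PAG1 stood at 333 and 294 in ar21, 379 and 381 in i4g1, and 305 and 299.6 in WT.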
